A study of Homo sapiens with 6 samples.

Results

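The miR-371 to miR-373 cluster is a group of miRNA genes on human chromosome 19 that is active in early embryonic cells. Its 8 mature miRNAs, both arms of the miR-371a, miR-371b, miR-372 and miR-373 hairpins, were taken from the arrays by name, out of 2549 human miRNAs measured. A miRNA is a short RNA that guides the silencing machinery to mRNAs, mostly through its seed, the bases 2 to 8 from its 5′ end. In human ES cells the cluster is known as an abundant source of miRNAs, together with the miR-302/miR-367 cluster, and the mouse counterpart is the miR-290 cluster. The 3p arms of miR-372 and miR-373 carry the seed of the miR-302 3p arms, and miRNAs with this seed are known to promote the rapid cell cycle of ES cells and to help reprogramming.

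The study asked which exosome-derived miRNAs differ between 2 substates of the established human ES cell line H9. Exosomes are vesicles shed by cells into their medium. All cells were grown in TeSR-E8 medium on Matrigel, a basement membrane extract, and the labels name no transgene or added agent. Colonies of substate 1 stained strongly for the R-10G epitope, a keratan sulphate of pluripotent cells, and lacked vimentin. Colonies of substate 2 had wide spaces between cells, stained more weakly for R-10G and carried vimentin, a mesenchymal filament protein. Each of 3 experiments gave 1 array for either substate. Passage numbers for substates 1 and 2 were 41 and 52 in experiment 1, then 46 and 61, and finally 50 and 65 in experiment 3. Substate 2 was thus 11 to 15 passages later in every experiment, so that substate and passage cannot be told apart. All arrays came from 1 cell line, so that p-values speak to the spread between these 3 experiments and not between lines. The main test (limma) also draws on the variance of the other miRNAs tested.

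The arrays detected 310 to 594 miRNAs each, and 8.39% to 16.9% of the spots for human miRNAs were well above background. Of markers of pluripotent cells, 5 of 5 (miR-302a-3p to miR-302d-3p and miR-367-3p) were detected on all 6 arrays, and 0 of 4 let-7 markers of differentiated cells on any. The neural marker miR-124-3p was detected on all 6 arrays as well, and miR-9-5p on none. Markers of blood, liver and muscle were detected on no array (0 of 3, 0 of 1 and 0 of 2). The summed signal of the 5 pluripotency markers was 853.8% to 1396.8% of the 99th percentile of an array in substate 1 and 812.8% to 1209.2% in substate 2. Experiment 1 lay on 1 slide and experiments 2 and 3 on another.

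The sequences below show how alike the members are, with the seed in capitals (RefSeq, GRCh38.p14, all 8 matched). The names stand as on the arrays, and the species prefix hsa is left out elsewhere. The 5p arms share the run CUCAAA at the head of the seed, and the 3p arms share AGUGC. The first 4 lines are the arms of the miR-371a and miR-371b hairpins.
hsa-miR-371a-5p: aCUCAAACugugggggcacu
hsa-miR-371a-3p: aAGUGCCGccaucuuuugagugu
hsa-miR-371b-5p: aCUCAAAAgauggcggcacuuu
hsa-miR-371b-3p: aAGUGCCCccacaguuugagugc
hsa-miR-372-5p: cCUCAAAUguggagcacuauucu
hsa-miR-372-3p: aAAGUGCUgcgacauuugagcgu
hsa-miR-373-5p: aCUCAAAAugggggcgcuuucc
hsa-miR-373-3p: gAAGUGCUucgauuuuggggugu
By their full seeds the members fell into 6 groups. The pair miR-371b-5p and miR-373-5p shared 1 seed, and the pair miR-372-3p and miR-373-3p shared another. The remaining 4 members each had a seed that no other miRNA of the array with a sequence in the table carried (2248 of 2549 had one).

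The 4 hairpins span 1099 bases at chr19:53787675-53788773 (GRCh38.p14), and MIR371A, MIR372 and MIR373 are read from the plus strand. MIR371B is read from the minus strand of the same site as MIR371A. The hairpins of MIR371A and MIR371B, printed here with their mature arms in capitals because they gave the 3 members detected on more than 1 array, overlap by 65 bases.
MIR371A, chr19:53787675-53787741, plus strand: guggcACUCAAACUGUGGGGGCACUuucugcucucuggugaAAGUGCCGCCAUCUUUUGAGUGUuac
MIR371B, chr19:53787677-53787742, minus strand: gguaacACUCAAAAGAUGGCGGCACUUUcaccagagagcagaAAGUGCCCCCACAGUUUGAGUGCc
As a result of this overlap, miR-371b-5p and miR-371a-3p share 21 genome bases on opposite strands and are complementary over that run. The pair miR-371a-5p and miR-371b-3p shares 20 bases in the same way. The MIR371A, MIR371B and MIR372 hairpins lie within the annotated lncRNA LOC124904767 (53787022 to 53788225), whose strand was not read here. The nearest protein-coding gene is NLRP12, an innate immune receptor gene that starts 4811 bases after the cluster. The nearest miRNA gene is MIR519A2, at the end of the large primate chromosome 19 cluster (C19MC), 25245 bases before it.

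**Figure D1:**
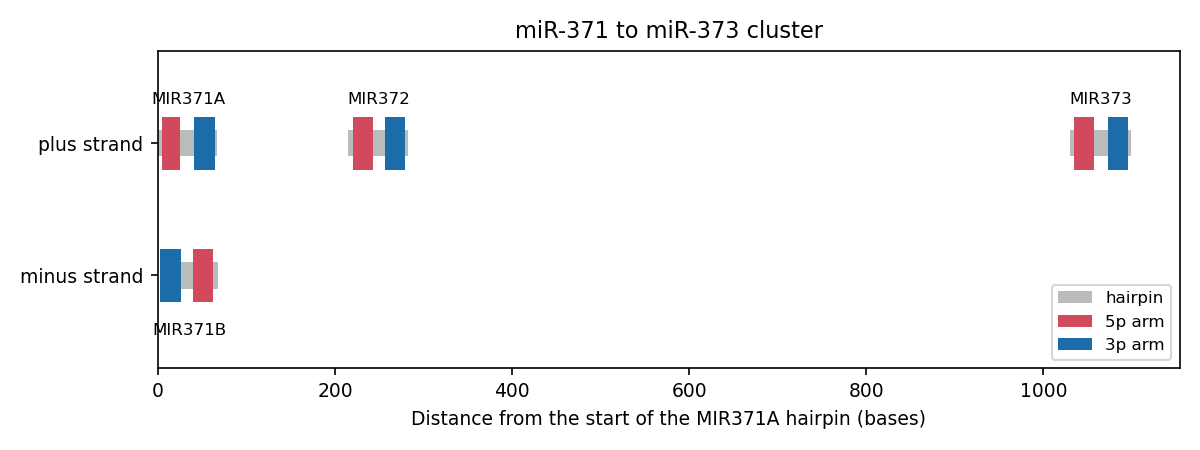
Map of the cluster on both strands, with the distance in bases from the start of the MIR371A hairpin on the horizontal axis. Grey bars are hairpins, red bars 5p arms and blue bars 3p arms, and the MIR371A and MIR371B hairpins lie on top of each other over 65 bases.

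In exosome RNA of both substates the probes of miR-371b-5p gave a signal well above background. Most of the cluster was at or below the limit of detection. Whether other RNAs bind these probes was not tested. The array software calls a miRNA detected when the signal of at least 1 of its probes is over 3 times its error. By this mark 1 member was detected on all 6 arrays, 2 on at least 3 arrays, 4 on at least 1 array, and 4 on none. Over all 2549 miRNAs, 11.3% were detected on all 6 arrays and 75.3% on none. The members were read by 18 probes on 160 spots per array, with 20 spots for each member.

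The 5p arms of the opposed miR-371 hairpins were detected on the most arrays. For miR-371b-5p, all 20 spots were well above background on each of the 6 arrays. miR-371a-5p was detected in both substates in experiments 1 and 2 and in neither in experiment 3, and the number of its spots well above background ran from 0 to 15. Of the 3p arms, miR-371a-3p was detected in both substates of experiment 1 alone. miR-373-3p was detected on 1 array, that of substate 1 in experiment 1.

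No array detected miR-371b-3p, miR-372-5p, miR-372-3p or miR-373-5p. Against the limit of 3 errors, the highest ratio of probe signal to error on any array was 2.01 for miR-372-3p, 0.933 for miR-373-5p, 0.342 for miR-372-5p and −0.05 for miR-371b-3p. A member below the limit has no measured level, so that the arrays do not show that it was absent.

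**Figure D2:**
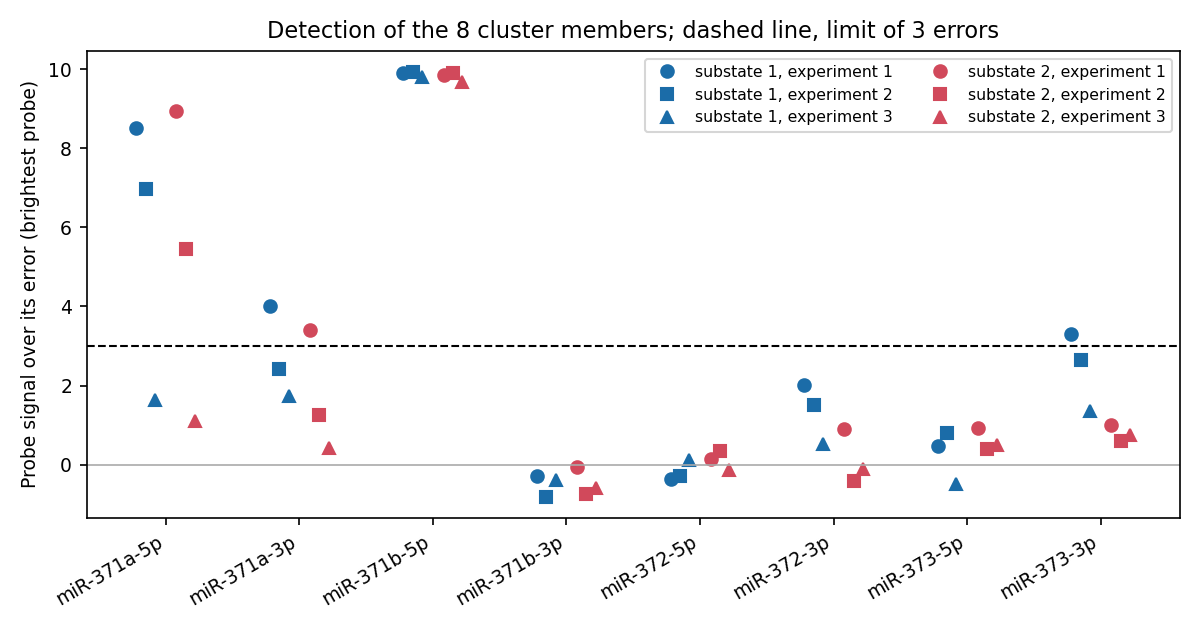
Ratio of probe signal to its error (vertical axis, no unit) for the brightest probe of each of the 8 members, by substate (colour) and experiment (symbol). The dashed line is the detection limit of 3 errors: miR-371b-5p lies above it on all 6 arrays, miR-371a-5p on 4, miR-371a-3p on 2 and miR-373-3p on 1.

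The total signal is the array software's summary for a miRNA, added up from its probes whose background-subtracted signal is over 3 errors. That of miR-371b-5p was 46.1 ± 3.29 intensity units in substate 1 and 28.8 ± 2.07 in substate 2 in experiment 1, where ± is the error given by the array software. In experiment 2 it was 50.3 ± 3.59 and 42.7 ± 3.05, and in experiment 3 it was 32.2 ± 2.33 and 22.6 ± 1.65. The unscaled signal was thus lower in substate 2 in 3 of 3 experiments, with log2 differences of −0.68, −0.24 and −0.51. The groups overlapped, since the substate 2 signal of experiment 2 was above the substate 1 signal of experiment 3. Arrays also differed in their overall brightness, and the 99th percentile of total signals was lower in substate 2 in every experiment. It was 475.6 and 268.7 units in experiment 1, 355.0 and 281.8 in experiment 2, and 179.9 and 125.0 in experiment 3. Since the same amount of RNA was labelled for both substates of an experiment, the arrays measure neither the number of exosomes nor the RNA per exosome.

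Relative to the 99th percentile of its array, miR-371b-5p stood at 9.69% in substate 1 and 10.7% in substate 2 in experiment 1. It stood at 14.2% and 15.2% in experiment 2, and at 17.9% and 18.1% in experiment 3. In this order the substates of 1 experiment were always neighbours, and the experiments differed more than the substates. The scaled signal was higher in substate 2 in 3 of 3 experiments, opposite to the unscaled signal, with log2 differences of 0.15, 0.10 and 0.02. The software's own error of these log2 ratios was 0.146, 0.146 and 0.148, so that only the first reached its error. Being higher in all 3 experiments was common, as it held for 21.1% of the 474 miRNAs tested.

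**Figure D3:**
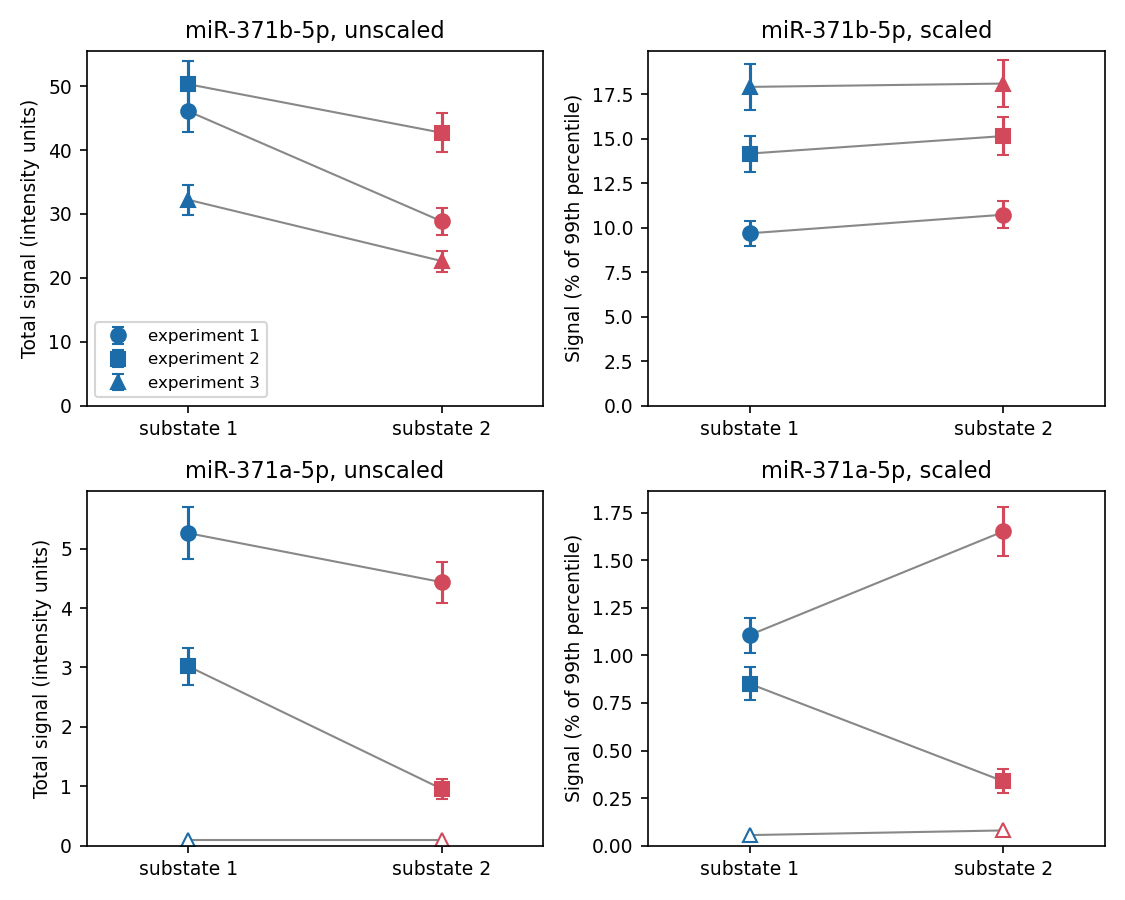
Total signal of miR-371b-5p (top) and miR-371a-5p (bottom) on each array, unscaled in intensity units (left) and as a percentage of the 99th percentile of the array (right). Lines join the arrays of 1 experiment, bars are the error given by the software, and open symbols are undetected arrays; the lines of miR-371b-5p fall on the left and are nearly flat on the right.

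For the test, scaled signals were raised to a floor common to the 6 arrays, 0.431% of the percentile, before log2 was taken. Each array had a lowest signal among its detected miRNAs, and the floor was the highest of these. The mean log2 signal of miR-371b-5p was −2.89 ± 0.45 (SD, n = 3 arrays) in substate 1 and −2.80 ± 0.38 in substate 2. The difference, substate 2 minus substate 1, was 0.09 with an SE of 0.08 and a 95% interval of −0.16 to 0.33 (limma with experiment as a block, adjusted p = 0.494 over 474 miRNAs). The difference within slide 1 (experiment 1) was 0.15, and over the experiments of slide 2 it was 0.06. The differences of the 3 experiments, all above 0, had an SD of 0.067, and the arrays of 1 substate varied more between experiments than this. The SE from limma draws on all tested miRNAs and so changed with the filter, at the same difference of 0.09. It was 0.036 with detection on at least 1 array (limma adjusted p = 0.423). With detection on all 6 arrays it was 0.202 (limma adjusted p = 0.786).

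The 2 probes of miR-371b-5p gave similar readings. Their mean spot signals lay between 79.9 and 181.2 intensity units over the 6 arrays, and the coefficient of variation over the spots of a probe on 1 array was 2.11% to 10.8%. Without scaling, the first probe was lower in substate 2 in all 3 experiments, with log2 differences of −0.26, −0.26 and −0.45, and so was the second, with −0.30, −0.22 and −0.56. Divided by the 99th percentile of spot signals, the first probe differed by 0.19, 0.08 and 0.10, and the second by 0.15, 0.12 and −0.01. In experiment 1 the spot signals fell less than the total signal did. On the substate 1 array of that experiment the total signal of a probe with 10 spots was 0.186 times its mean spot signal, against 0.141 times on the other 5 arrays, and this factor of 1.32 cancels when an array is scaled to its own percentile.

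miR-371a-5p, read from the opposite strand of the same site, had total signals of 5.26 ± 0.44 in substate 1 and 4.44 ± 0.34 in substate 2 in experiment 1. In experiment 2 the signals were 3.02 ± 0.31 and 0.954 ± 0.17, and in experiment 3 it was undetected in both substates. Scaled, it was higher in substate 2 in experiment 1 by 0.58 on the log2 scale, more than the error of 0.164 given for that ratio. In experiment 2 it was lower, with a difference of −0.98 after the substate 2 value was raised to the floor, so that the direction was not shared. The mean log2 signals were −7.08 ± 0.70 (SD, n = 3 arrays) and −7.21 ± 1.12, with both arrays of experiment 3 at the floor. The difference was −0.13 with an SE of 0.38 and a 95% interval of −1.33 to 1.06 (limma, adjusted p = 0.846). Leaving out experiment 2 turned it to 0.29 (adjusted p = 0.487).

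The total signal of miR-371a-5p fell in experiment 2 together with the number of probes counted in it. The deposited total signal equalled the sum over those probes whose signal was over 3 errors, to within 0.1%, in 2698 of 2698 detected values. For miR-371a-5p the sum held 3 of its 4 probes on both arrays of experiment 1 and on the substate 1 array of experiment 2, but only 1 on the substate 2 array of experiment 2. The brightest probe, which was counted on all 4 of these arrays, had mean spot signals of 28.9 and 33.5 units in experiment 1 and of 20.3 and 13.5 in experiment 2. Scaled to the 99th percentile of spot signals, it differed by 0.66 in experiment 1 and by −0.25 in experiment 2, where the total signal scaled without a floor differed by −1.33. The probes counted in experiment 2 on the substate 1 array alone had lower spot signals in substate 2 too, 12.41 and 5.90 units for one and 10.04 and 5.83 for the other. As percentages of that percentile they differed by −0.396 and −0.215 points, against −0.261 for the brightest probe. The lower total thus went with lower spot signals as well as with fewer counted probes. A different number of counted probes between substates in at least 1 experiment was seen for 205 of the 474 tested miRNAs (43.2%).

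The differences of the tested members had opposite signs. The median difference of miR-371b-5p and miR-371a-5p was −0.02, with 0.36, −0.44 and 0.01 in the 3 experiments, beside a median of −0.01 over all 474 tested miRNAs. In experiments 2 and 3 the members' median rests on floored values of miR-371a-5p. Of the 2 tested members, 0 were called, where a call needed both a 2-fold difference or more and an adjusted p under 0.05. By this rule 0% of all tested miRNAs were called (smallest adjusted p, 0.139). Since 0 were called, unadjusted values are given too: 109 miRNAs (23%) had an unadjusted p under 0.05 in limma, and 0 of the 2 members did. At least 2-fold differences were found for 9.49% of all tested miRNAs and for 0 of the 2 members. The substates did not overlap for 25.9% of all tested miRNAs and for 0 of the 2 members. With Benjamini-Hochberg adjustment, the methods' t-test gave 0.431 for miR-371b-5p and 0.855 for miR-371a-5p, and 3 experiments allow no exact sign-flip p below 0.25.

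**Figure D4:**
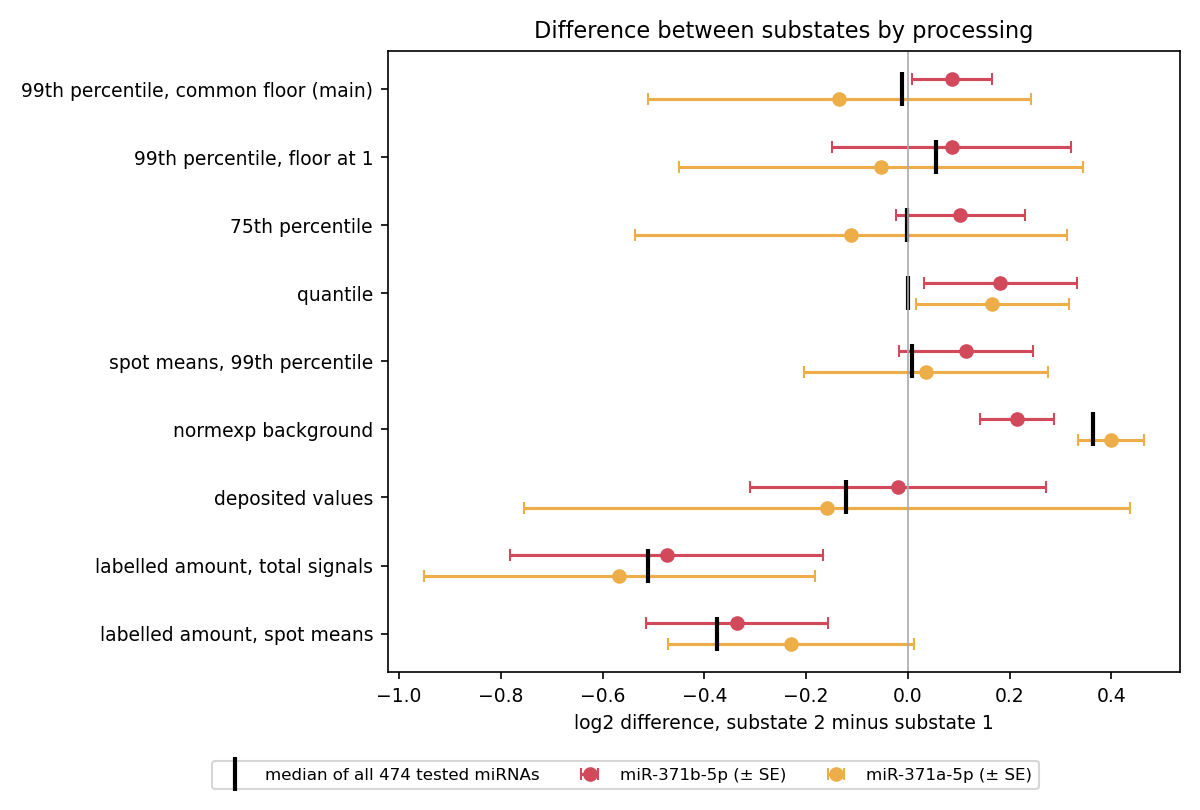
Log2 difference, substate 2 minus substate 1, of miR-371b-5p (red) and miR-371a-5p (yellow) under 9 ways of processing, with the SE from limma as bars and the median of all 474 tested miRNAs as a black line. Dividing by the labelled amount took that median to −0.51 and miR-371b-5p to −0.47.

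The sign for miR-371b-5p depended on how the arrays were made comparable. Both substates of an experiment had the same labelled amount (72.4, 100 and 51.4 ng in experiments 1 to 3), and dividing by it in place of the percentile leaves the brightness of the arrays in the values. The difference of miR-371b-5p was then −0.47, beside a median of −0.51 over all tested miRNAs. From spot signals, an alternative chosen after the data were seen, it was −0.34 beside a median of −0.38. Under these scalings miR-371b-5p lay close to the median of the tested miRNAs.

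Among the 3p arms below or near the limit of detection, the brighter probes of miR-373-3p, miR-372-3p and miR-371a-3p gave lower unscaled spot signals in substate 2, and those of miR-371b-3p did not. The brighter probe of miR-373-3p, on spots of background-subtracted intensity, read 6.23 ± 2.71 units (SD over spots) in substate 1 and 1.67 ± 1.85 in substate 2 in experiment 1. In experiment 2 it read 5.62 ± 2.00 and 0.02 ± 1.19, and in experiment 3 it read 3.22 ± 1.55 and 1.55 ± 1.63. Unscaled, this probe was lower in substate 2 in all 3 experiments, as were 15.4% of all 5893 array probes. The arrays of substate 2 were dimmer in general. Their 99th percentile of spot signals was 950, 997 and 433 units in experiments 1 to 3, against 1298, 1256 and 636 in substate 1. The other probe of miR-373-3p did not follow the brighter one throughout, with 1.26 and −0.23 units in experiment 1, 0.96 and 1.25 in experiment 2, and 1.33 and 0.92 in experiment 3.

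miR-372-3p shares the seed of miR-373-3p and was detected on no array. Its brighter probe read 3.65 ± 1.45 and 1.47 ± 1.59 in experiment 1, 3.15 ± 2.15 and −0.87 ± 1.11 in experiment 2, and 0.58 ± 2.84 and −0.23 ± 0.99 in experiment 3. Its second probe read 2.12 and −0.00, 2.28 and −1.03, and 1.24 and −0.76 in the same order. Both probes were lower in substate 2 in 3 of 3 experiments, which before scaling held for 15.4% of all 5893 array probes.

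For miR-371a-3p, the other end of the MIR371A hairpin, the brighter probe read 7.81 ± 2.07 and 5.98 ± 2.65 in experiment 1, 5.11 ± 2.81 and 2.60 ± 1.60 in experiment 2, and 4.15 ± 2.37 and 0.85 ± 1.13 in experiment 3. This probe too was lower in substate 2 in every experiment before scaling. Its other probe was not, with 1.73 and 1.02 units in experiment 1, 0.97 and 1.49 in experiment 2, and 2.03 and 0.81 in experiment 3. In experiment 1, where both arrays detected the miRNA, the scaled total signal differed by only 0.04 with an error of 0.556. The total signals there were 1.45 ± 0.36 and 0.845 ± 0.25.

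miR-371b-3p, the 3p arm from the minus strand, had readings below 0 on every array. Its first probe read −0.53 and −0.51 in experiment 1, −2.22 and −1.53 in experiment 2, and −1.98 and −1.22 in experiment 3. Unscaled, it was higher in substate 2 in 3 of 3 experiments. Its second probe read −0.57 and −0.08, −1.65 and −1.65, and −0.93 and −1.48 in the same order. Such values do not give a level of the miRNA.

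These dim readings were not tested, as 6 of 8 members did not reach detection on 3 arrays. Over all members, 4 of 18 probes were lower in substate 2 in all 3 experiments after scaling, against 14.9% of all 5893 probes. They were both probes of miR-372-3p, 1 of miR-373-3p and 1 dim probe of miR-371a-5p. Higher in all 3 experiments were 2 of 18 probes, 1 of miR-371b-5p and 1 of miR-372-5p, against 16.6% of all probes. Before scaling, 6 of 18 were lower, against 15.4%. Probes of 1 miRNA share its RNA and are not independent.

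**Figure D5:**
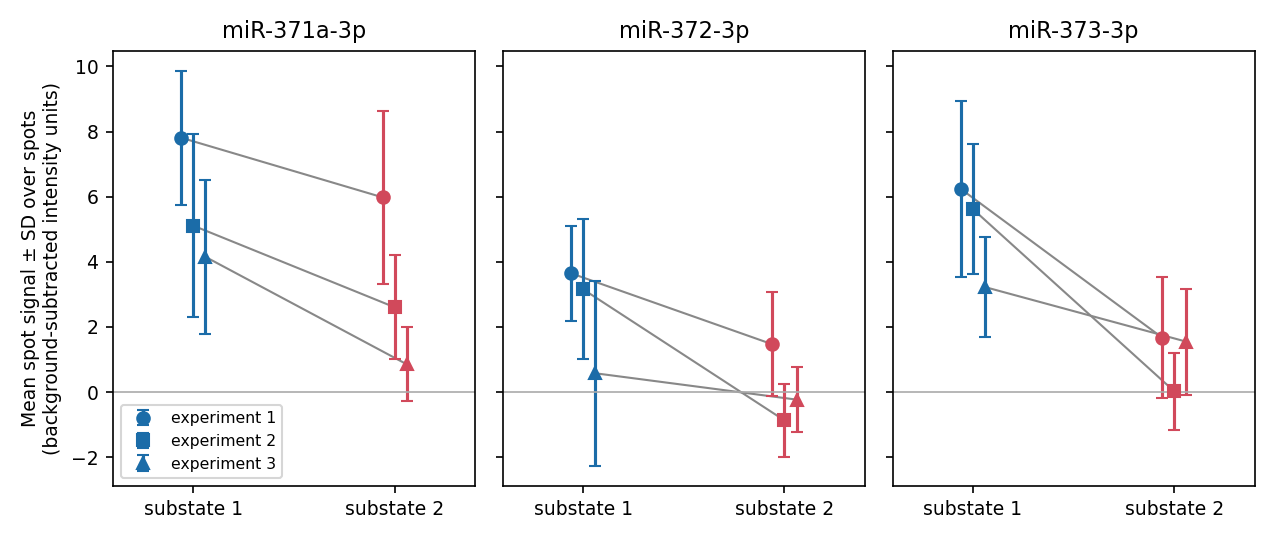
Mean background-subtracted spot signal (intensity units) of the brighter probe of miR-371a-3p, miR-372-3p and miR-373-3p on each array, unscaled, with the SD over its spots as bars and lines joining the arrays of 1 experiment. Every line falls from substate 1 to substate 2, and the substate 2 signals of miR-372-3p and miR-373-3p lie within 1.67 units of 0.

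Among the array miRNAs with a sequence in the table, 8 others carried the seed of miR-372-3p and miR-373-3p. Of these, 4 were detected on all 6 arrays. They are the 3p arms of miR-302a to miR-302d, the best known products of the other ES cell cluster, printed here with the shared seed in capitals.
miR-302a-3p: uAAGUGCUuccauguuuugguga
miR-302b-3p: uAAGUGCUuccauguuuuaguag
miR-302c-3p: uAAGUGCUuccauguuucagugg
miR-302d-3p: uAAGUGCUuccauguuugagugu
miR-520c-3p: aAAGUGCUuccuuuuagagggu
The last line is a C19MC member, shown because it is the other tested miRNA found with this seed. miR-520b was tested too (−0.40, limma adjusted p = 0.274), but it had no sequence in the table, so its seed was not compared. All 5 miRNAs printed here were lower in substate 2 in the mean, with a median of −0.36, and 0 were called (smallest adjusted p, 0.280). The differences were −0.36 for miR-302a-3p, −0.51 for miR-302b-3p, −0.22 for miR-302c-3p and −0.33 for miR-302d-3p, with SEs of 0.26, 0.33, 0.18 and 0.25. In experiment 2 these 4 were higher in substate 2, by 0.25, 0.28, 0.17 and 0.27, and in experiments 1 and 3 they were lower. miR-520c-3p was lower in all 3 experiments, with differences of −0.67 and −0.54 in experiments 1 and 2. In experiment 3 it was undetected in substate 2, and the difference of −2.97 is set by the floor. The seed was thus measured on all 6 arrays in the miR-302 arms, and on 1 array in the cluster's own members.

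The seed of miR-371b-5p and miR-373-5p was carried by 1 other array miRNA with a sequence in the table, miR-616-5p, which was detected on no array. Of the array miRNAs named miR-302a to miR-302f or miR-367, taken by name alone, 8 of 12 were detected on all 6 arrays and tested. Their median difference was −0.33, 7 were lower, and 0 were called. The 5p arms differed by −0.48 for miR-302a-5p, −0.28 for miR-302b-5p and −0.32 for miR-302c-5p, while miR-367-3p, which has another seed, differed by 0.21. Of the neighbouring miR-519 and miR-520 members of C19MC, 10 of 17 were detected on at least 1 array and 8 were tested. Their median was −1.19, all 8 were lower in the mean, and 0 were called (smallest adjusted p, 0.139). Lower in all 3 experiments were 6 of the 8, against 23.4% of all tested miRNAs, and at least 2-fold lower were 5 of the 8, against 4.64%. Many of these values were set by the floor, which held 16 of the 24 values of substate 2 and 2 of the 24 of substate 1. All 8 were at the floor in substate 2 in experiment 3, and 3 of them in every experiment, so that the sizes of these differences depend on it. miR-371b-5p was above the floor on all 6 arrays.

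Over the 6 arrays, the log2 signal of miR-371b-5p ran most closely with those of miR-6125 (Pearson r = 0.968), miR-7108-5p (0.968), miR-3656 (0.951), miR-7704 (0.951) and miR-3665 (0.946), among 288 other miRNAs detected on all 6 arrays. The 5th, 50th and 95th percentiles of r over those miRNAs were −0.79, 0.09 and 0.86. With 6 arrays in 3 pairs, this r is a description, and the arrays of 1 experiment share slide and labelled amount. All 5 were lower in experiment 1 than in experiments 2 and 3 on the arrays of both substates. Of the 5, the 4 with a sequence in the table had a GC content of 80.0% to 84.2%, against 45.5% for miR-371b-5p and a median of 60.9% over 242 miRNAs detected on all 6 arrays. They shared at most 6 bases in a row with miR-371b-5p. Their differences between substates were small, from −0.01 for miR-7108-5p to 0.14 for miR-3656, and 0 of the 5 were called.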

How the data were processed

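The authors precipitated exosomes with ExoQuick-TC, extracted RNA with miRNeasy and hybridised Cy3-labelled miRNAs to Agilent SurePrint G3 arrays. The deposited intensity of each spot and the total signal come from Agilent Feature Extraction (12.0.3.2 in experiment 1, 11.5.1.1 in experiments 2 and 3), not normalised between arrays. A table of log2 signals, scaled per array by the authors, was also deposited. Each of its columns was log2 of the total signal over 1 constant (189.1 to 678.7 units), and undetected miRNAs, which set the column medians, stood at −12.73 to −10.88. The paper states that signals under 1 were set to 1 and arrays scaled to the 99th percentile. The deposited log2 values did not show this floor, since undetected miRNAs stood at log2 of 0.1 units over the constant. Nor were the constants the 99th percentiles found here (125.0 to 475.6 units). The paper also states that exosome signals were corrected to an equivalent of 1 ng, a step that the reported fit did not include. Here total signals were divided by the array's 99th percentile over 2549 human miRNAs and floored. Detection on at least 3 arrays left 474 miRNAs for limma (version 3.58.1, R 4.3.3) with the experiment as block, two-sided moderated tests and Benjamini-Hochberg adjustment over all of them. The 2 arrays of an experiment come from the same numbered experiment in the labels, and their deviations correlated at 0.674, 0.0307 and 0.517. The fit was run on simulated data without a floor, which does not test how it treats floored values. Other floors, scalings, background corrections, filters, fits and tests, and each experiment left out, were tried as alternatives. The planned normexp correction used median spot intensity, the column present. The text names all 8 members, related miRNAs detected on all 6 arrays (and, outside this rule, miR-520b, miR-520c-3p and miR-616-5p), and the 5 miRNAs most correlated with miR-371b-5p. Members and lists were chosen with earlier results of these data known. The number of arrays limits the precision.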

Additional observations from a re-analysis of the deposited data

How the results depend on the processing

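In each setting tried, 0 members were called (in both tests limited to miRNAs with a 2-fold difference, no member entered), and the adjusted p ran from 0.0501 to 0.970 for miR-371b-5p and from 0.0109 to 0.973 for miR-371a-5p. The lowest p of both came from the normexp correction, which moved the median of all tested miRNAs to 0.36 and turned miR-371a-5p to 0.40, under 2-fold. miR-371a-5p also turned with quantile normalization (0.17) and with mean spot signals (0.035), and ran from −0.49 to 0.29 as each experiment was left out. miR-371b-5p turned when the labelled amount replaced the percentile (−0.47), with mean spot signals divided by the labelled amount (−0.34, chosen after the data were seen) and in the deposited log2 values (−0.020), and ran from 0.06 to 0.12 as each experiment was left out. The members' median moved to −0.52 with the labelled amount, and ran from −0.22 to 0.19 without 1 experiment. The number of all tested miRNAs called, 0 as reported and 0 with each experiment left out, was 2 with normexp, 7 with detection on all 6 arrays required, 50 (3 higher, 47 lower) with mean spot signals over the labelled amount, and 45 (23 higher, 22 lower) by the methods' t-test with Storey's q. That last test was run over the 45 miRNAs with at least a 2-fold difference and called all of them, and Benjamini-Hochberg adjustment over the same 45 called 0. Without the replicate block 1 was called, and the members' differences were unchanged at 0.09 and −0.13 (adjusted p = 0.957 and 0.973). The split of at least 2-fold differences was 23 higher and 22 lower as reported, 4 higher and 97 lower with the labelled amount, and 5 higher and 62 lower with mean spot signals over the labelled amount. The cause of these changes was not tested. Signal over background limits all members but miR-371b-5p.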
